A study of Mus musculus with 22 samples.

Results

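The Schlafen genes Slfn1, Slfn2, Slfn4 and Slfn5 were followed through single-cell libraries of neutrophils sorted from the mouse ileum. They are 4 of 16266 named genes and 23091 rows in all, and 4 of 7 Schlafen genes with a row in any table. They were selected by name from the tables with earlier results of these data in view, and the measured values that led to the choice are not known. Levels by group and by cell class are among what the choice reads, so the fits on those 2 contrasts describe size and spread and lend no support to the choice.

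Recipients were BALB/c mice of 7 to 9 weeks that had received 2 radiation doses of 5 Gy and, on the same day, 5000000 bone marrow cells from C57BL/6 donors, the C57BL/6N mice being females of 7 to 10 weeks. In the aGVHD group (12 libraries) 400000 donor T cells were given too, and acute graft-versus-host disease (aGVHD) followed. In the control group (10 libraries) no T cells were given. Cells were taken on day 21 through a CD45+ H2kb+ CD11b+ Ly6G+ gate, which asks for donor-type leukocytes with neutrophil surface markers. All recipients were therefore irradiated and transplanted, and the controls are not untouched mice. The labels do not say which mouse a library came from or whether mice were pooled. A p-value here therefore weighs a difference against variation among libraries, part of which may be technical.

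Schlafen proteins are a mammalian family that is induced by interferons in many immune cells and that restrains growth and translation. In mouse T cells Slfn2 is needed to keep resting cells quiescent, and Slfn1 slows growth when it is overexpressed. Slfn4 is a myeloid member, known from mouse monocytes, macrophages and neutrophils that have met interferon or bacterial products. Slfn5 belongs to the long members, which carry a helicase-like part at the carboxyl end.

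In mouse the family lies in 1 cluster on chromosome 11. In the GENCODE annotation on GRCm38, Slfn5 spans chr11:82951349-82964840, Slfn2 chr11:83065112-83070678, Slfn1 chr11:83116849-83122670 and Slfn4 chr11:83175186-83190216, all on the plus strand. Slfn8 at chr11:83002158-83020810 and Slfn9 at chr11:82978390-82991830 lie among them on the minus strand. The promoter windows of all 4 members are shown because 3 of them share a run of letters and the other holds an interferon element. Each is the RefSeq window of 300 bases on GRCm38.p6 that runs up to and just past the start site, and capitals mark the letters described after it. The windows are chr11:83116570-83116869 for Slfn1, chr11:83064862-83065161 for Slfn2, chr11:83174936-83175235 for Slfn4 and chr11:82951852-82952151 for Slfn5, all on the plus strand. The RefSeq start of Slfn5 used here lies inside the GENCODE span.
Slfn1: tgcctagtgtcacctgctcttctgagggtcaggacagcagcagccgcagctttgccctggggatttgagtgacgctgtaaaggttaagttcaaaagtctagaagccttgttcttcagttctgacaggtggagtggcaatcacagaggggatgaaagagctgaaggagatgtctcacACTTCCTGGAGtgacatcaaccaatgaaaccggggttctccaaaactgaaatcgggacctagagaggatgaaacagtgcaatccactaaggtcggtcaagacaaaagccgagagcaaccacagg
Slfn2: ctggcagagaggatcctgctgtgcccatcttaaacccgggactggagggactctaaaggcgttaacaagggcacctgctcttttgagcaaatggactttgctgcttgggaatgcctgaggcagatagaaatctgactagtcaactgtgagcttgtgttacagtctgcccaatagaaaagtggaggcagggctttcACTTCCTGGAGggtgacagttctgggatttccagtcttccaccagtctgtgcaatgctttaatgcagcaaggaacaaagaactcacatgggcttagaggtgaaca
Slfn4: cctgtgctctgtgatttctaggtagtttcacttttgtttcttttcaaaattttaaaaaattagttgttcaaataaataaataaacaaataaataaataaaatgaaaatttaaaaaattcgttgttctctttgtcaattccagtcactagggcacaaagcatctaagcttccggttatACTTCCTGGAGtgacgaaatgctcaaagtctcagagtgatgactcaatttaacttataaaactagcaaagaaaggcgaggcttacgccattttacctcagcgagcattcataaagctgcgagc
Slfn5: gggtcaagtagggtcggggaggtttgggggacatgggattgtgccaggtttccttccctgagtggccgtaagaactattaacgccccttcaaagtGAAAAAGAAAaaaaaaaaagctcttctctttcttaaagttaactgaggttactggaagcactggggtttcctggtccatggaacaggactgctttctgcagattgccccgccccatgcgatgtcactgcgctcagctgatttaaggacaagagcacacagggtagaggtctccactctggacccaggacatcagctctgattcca

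The longest run that the Slfn1, Slfn2 and Slfn4 windows share is ACTTCCTGGAG, 11 letters long. It begins 74 bases before the start site in Slfn1, 55 in Slfn2 and 73 in Slfn4. Searched on both strands, it was in 24 of 32851 RefSeq promoter windows of the same length, or 0.0731%. The run was picked after the sequences were seen, from paralogous genes, so its rarity is a description. Read on the opposite strand it holds GGAA, the letters at the core of the elements that ETS factors bind. The windows of Slfn5, Slfn3, Slfn8, Slfn9 and Slfn14 do not hold it in full. The Slfn3 window holds the run with only the letter before the last changed, from A to G.

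The core of the interferon-stimulated response element, searched on both strands as GAAA, any 2 bases and GAAA, was found in the Slfn5 window as GAAAAAGAAA. It begins 155 bases before the start site there. The windows of Slfn8 and Slfn9, which are not among the 4 members, hold it on the opposite strand as TTTCGTTTTC. The Slfn1, Slfn2 and Slfn4 windows hold no such match, which says only that these letters are not in these windows. Over all RefSeq promoter windows 3.44% hold the core. Of the listed type I interferon-induced antiviral genes with a window, 18 of 37 hold it, and of the listed interferon-gamma-induced GTPase and chemokine genes, 11 of 15. The gamma-activated site core TTCNNNGAA was in the window of no member, against 8.3% of all windows.

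The tables hold 3′-end transcripts counted with molecular identifiers in 4224 barcodes, of which 1383 had at least 500 transcripts and were kept as cells. There were 1025 kept cells in aGVHD and 358 in control libraries, and 74 to 95 per aGVHD library against 11 to 60 per control library. Library totals were 215945 to 360054 transcripts in aGVHD and 45607 to 233719 in control. A level is a gene's share of the named-gene transcripts in the kept cells of a library, scaled in the usual way as CPM. Intervals of pooled levels and shares cover counting error only. The gate held other cells too: clusters built without any Schlafen gene were named neutrophil-like (758 cells), macrophage/monocyte-like (107), epithelial-like (119), erythroid-like (62) or B or plasma-like (36), and 301 cells stayed unnamed. Neutrophil-like cells were 34.1 to 83.5% of an aGVHD library and 25 to 62.5% of a control library. Class sizes moved with the settings. Neutrophil-like cells numbered 606 of 1681 kept cells at a minimum of 250 transcripts, and 417 of 1186 at 1000. They numbered 535 of 1287 without cells of very high totals or much Kcnq1ot1, and 1171 of 1383 when called by summed markers. At a lower and a higher clustering resolution they numbered 771 and 603, with 0 and 107 macrophage/monocyte-like cells. Levels by cluster below rest on the 758 cells.

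Slfn1 was counted 963 times in 534 kept cells, Slfn2 1110 times in 539, Slfn4 1360 times in 475 and Slfn5 52 times in 45. Slfn1, Slfn2 and Slfn4 had a row in 22 of 22 tables and Slfn5 in 20. Of the other family genes, Slfn8 was counted 276 times, Slfn14 14 times and Slfn3 9 times, and Slfn9, Slfn10-ps and Slfnl1 had no row. Family members are paralogs, and the sources used here do not give how reads that match more than 1 of them were counted. Slfn5 overlaps the antisense gene Slfn5os, and whether counting used strand is not given either.

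Across all kept cells, the aGVHD libraries held more Slfn1, Slfn2 and Slfn4 than the control libraries. Slfn1 had 254 CPM in the lowest aGVHD library, a median of 454 and 851 in the highest, against 0 (no transcript in 1 library of 12 cells), 121 and 376 CPM in control. Slfn2 had 338, 552 and 786 CPM in aGVHD, against 54.6, 226 and 421 CPM in control, by lowest, median and highest library. Slfn4 had 227, 660 and 1312 CPM in aGVHD, against 109, 250 and 470 CPM in control. The 2 groups overlapped for each of these genes, but each aGVHD library stood above the control mean for Slfn1 and Slfn2, and 11 of 12 for Slfn4. Slfn5, at 0, 20.9 and 56.5 CPM in aGVHD and 0, 16.3 and 118 CPM in control, was too low to be tested.

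Slfn1 averaged 514 ± 190 CPM in aGVHD and 160 ± 129 CPM in control (SD, n = 12 and 10), with a log2 fold change of 1.38 and an SE of 0.27. By limma on voom weights with Benjamini-Hochberg adjustment over 1715 genes, its adjusted p was 0.00640. Slfn2 averaged 542 ± 123 CPM in aGVHD and 245 ± 121 CPM in control, a log2 fold change of 1.14 (SE 0.22, adjusted p = 0.00485, limma). Slfn4 averaged 708 ± 327 CPM in aGVHD and 270 ± 121 CPM in control, a log2 fold change of 1.22 (SE 0.29, adjusted p = 0.0142, limma). So 3 of 4 members rose, and the fourth did not pass the filter on low counts. Over all genes tested 4.14% were called higher and 4.2% lower, and since this contrast is among what the choice of members reads, nothing is drawn from these shares. The Slfn4 call ended in libraries with at least 20 kept cells (1.22, adjusted p = 0.0858, limma) and without cells of very high totals or much Kcnq1ot1 (0.77, adjusted p = 0.120, limma), and the Slfn1 call ended with limma trend on log2(CPM + 1) (2.44, adjusted p = 0.0527). Slfn8 averaged 165 ± 131 CPM in aGVHD and 108 ± 119 CPM in control and did not pass (log2 fold change 0.69, SE 0.31, adjusted p = 0.162, limma).

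**Figure D1:**
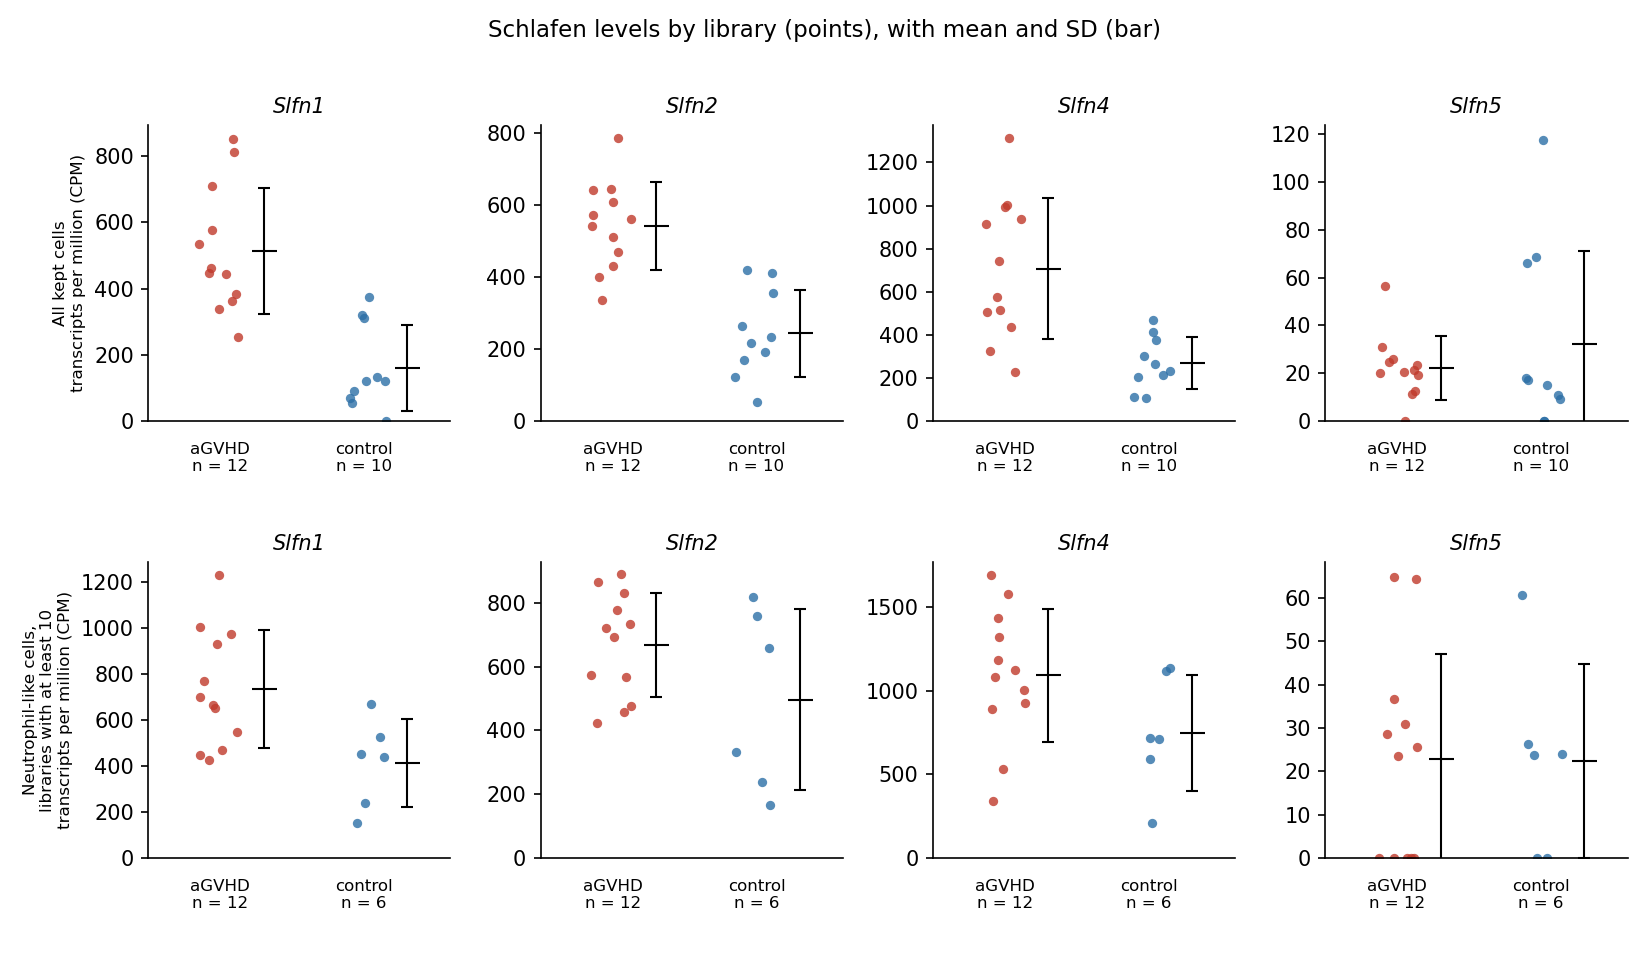
CPM of each Schlafen gene (y axis, scale differs by panel) in aGVHD and control libraries, for all kept cells (upper row) and for neutrophil-like cells of the libraries holding 10 or more (lower row). Points are libraries and black bars the mean and SD; Slfn1, Slfn2 and Slfn4 stand higher in aGVHD in the upper row, and the groups overlap more in the lower row.

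The libraries come in 2 sets by their titles, one dated and one not, and set was a term in the fit. Within the dated set (8 aGVHD and 6 control libraries) the log2 fold changes were 1.45 for Slfn1, 1.37 for Slfn2 and 1.23 for Slfn4, with adjusted p = 0.0298, 0.0247 and 0.0484 by limma. Within the other set (4 and 4 libraries) they were 1.09, 0.93 and 1.36, with adjusted p = 0.416, 0.418 and 0.370 by limma, so no call held there. The difference between the sets was itself below the threshold for each gene (adjusted p = 0.947, 0.934 and 0.975, limma), and 0% of the 1715 genes were called for it, with 86 at an unadjusted p under 0.05.

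Neutrophil content moved with the group. The summed level of the neutrophil markers was 31347 to 110624 CPM in aGVHD libraries and 16317 to 38005 CPM in control libraries, and 9 of 21 markers tested rose while none fell. Macrophage/monocyte markers summed to 1336 to 10754 CPM in aGVHD and 550 to 11896 CPM in control, with 0 of 11 tested past the threshold. Macrophage/monocyte-like cells were 1.2 to 10.7% of an aGVHD library and 9.52 to 25% of a control library. Of 4 dendritic markers tested 2 fell, and the list summed to 286 to 1124 CPM in aGVHD and 527 to 2681 CPM in control. The part of the change in marker content in the Schlafen differences was not tested in this comparison. Of 5 granule genes tested 3 rose, and of 25 late maturation genes 8 rose. Over all 1715 genes tested in this comparison 4.14% were called higher and 4.2% lower. In whole-gate sums, more cells of a type and more RNA per cell cannot be told apart.

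The same contrast was therefore made within neutrophil-like cells, where 12 aGVHD and 6 control libraries held 10 or more. There Slfn1, Slfn2 and Slfn4 had positive fold changes that did not pass the threshold. Slfn1 had 424, 683 and 1230 CPM (lowest, median, highest) in aGVHD and 152, 446 and 670 CPM in control, with a log2 fold change of 0.78 (SE 0.28, adjusted p = 0.251, limma). Slfn2 had 424, 706 and 891 CPM in aGVHD and 168, 496 and 820 CPM in control, with a log2 fold change of 0.70 (SE 0.27, adjusted p = 0.321, limma). Slfn4 had 339, 1104 and 1692 CPM in aGVHD and 213, 715 and 1135 CPM in control, with a log2 fold change of 0.63 (SE 0.32, adjusted p = 0.425, limma). The Slfn2 value was 1.24 in the dated set, 0.10 in the other set and 0.47 without control replicate 2. The Slfn4 value was 0.46 in the dated set, 1.04 in the other set and 0.40 without control replicate 8. Groups overlapped for each gene, although each aGVHD library was above the control mean of Slfn1.

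Of 786 genes tested in neutrophil-like cells, 0% were called by limma, with 97 at an unadjusted p under 0.05. The 95% confidence intervals of the log2 fold change were 0.21 to 1.36 for Slfn1, 0.13 to 1.27 for Slfn2 and -0.02 to 1.29 for Slfn4, so a log2 value of 1 lies within each. Counts of 687 genes were simulated with the library totals of this comparison and a dispersion of 0.2 for each gene, which was assumed and not estimated. In them 39.2% of the 79 genes changed by a log2 value of 1 were recovered. That share depends on the assumed dispersion, so it is not the power of the fit on these libraries. Slfn5, with 26 transcripts in aGVHD and 5 in control neutrophil-like cells of these libraries, and Slfn8, with 118 and 19, were below the filter.

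The share of neutrophil-like cells with a transcript was 56.3% in aGVHD and 32.9% in control for Slfn1, 52.4% and 33.5% for Slfn2, and 51.7% and 38.2% for Slfn4. Each cell was then thinned to 500 transcripts, unnamed gene models included, and no cell was lost. The shares were then 16.8% (95% Clopper-Pearson interval 13.9 to 20.1) in aGVHD and 14.7% (9.75 to 20.9) in control for Slfn1. For Slfn2 they were 18.03% (15 to 21.4) in aGVHD and 11.8% (7.34 to 17.6) in control, and for Slfn4 21.1% (17.9 to 24.6) and 17.6% (12.2 to 24.2). At this depth the intervals of the groups overlapped for each gene. With cells thinned to 1000 transcripts, which left out 44 aGVHD and 27 control cells, the Slfn1 shares of 35.3% (31.3 to 39.5) in aGVHD and 22.4% (15.8 to 30.1) in control did not overlap. The Slfn2 shares of 28.5% (24.7 to 32.5) and 23.1% (16.4 to 30.9) and the Slfn4 shares of 34.9% (30.9 to 39.1) and 23.8% (17.1 to 31.6) still did. All intervals of shares here pool cells and leave out the spread between libraries. By library, the Slfn1 share at 1000 transcripts ran from 20.7 to 53.6% in aGVHD and from 0 to 40% in control, so the groups overlapped. Slfn5 was found in 0.51% of thinned aGVHD cells and 1.76% of thinned control cells, 3 cells in each. Epithelial-like cells were read as a rough measure of free RNA, but Schlafen transcripts of their own were not set apart from it. Before thinning, Slfn8 had 188 CPM there and 127 CPM in neutrophil-like cells in aGVHD. Among thinned epithelial-like cells the shares were 4.82% in aGVHD and 5.56% in control for Slfn1, 2.41% and 5.56% for Slfn2, and 3.61% and 2.78% for Slfn4. Those cells had a median of 5723 transcripts in aGVHD and 9592 in control before thinning, against 2282 and 2058 in neutrophil-like cells. In aGVHD the intervals of neutrophil-like cells lay above those of epithelial-like cells for Slfn1, Slfn2 and Slfn4. Before thinning, 83 epithelial-like cells in aGVHD held 191306 named transcripts, and 588 neutrophil-like cells held 926789. Since unnamed gene models counted toward the 500, the classes were not brought to the same depth of named transcripts. The part of this in the shares was not tested. In control, with 36 epithelial-like cells, the intervals of the 2 classes overlapped for each of these genes. Slfn5 was found in 0 of 83 epithelial-like cells in aGVHD, with an upper 95% Clopper-Pearson limit of 4.35%. Its share in neutrophil-like cells could therefore not be told from that of epithelial-like cells at 500 transcripts.

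By share of transcripts, though not by count per cell for each gene, the family divided by cell class. As such shares, Slfn4 and Slfn1 were lower in macrophage/monocyte-like than in neutrophil-like cells of the same library. The difference of Slfn2 did not pass the threshold. This was measured where a library held 3 or more cells of each class, in 19 libraries. Macrophage/monocyte-like cells held more transcripts: medians of 7855 in aGVHD and 5208 in control, against 2282 and 2058 in neutrophil-like cells. Before thinning, in aGVHD, Slfn1 was found in 52.5% of macrophage/monocyte-like and 56.3% of neutrophil-like cells, Slfn2 in 72.1% and 52.4%, and Slfn4 in 42.6% and 51.7%. In control these shares were 30.4% and 32.9%, 45.7% and 33.5%, and 10.9% and 38.2%. In aGVHD, 61 macrophage/monocyte-like cells held 61 transcripts of Slfn1, 164 of Slfn2 and 44 of Slfn4, and 588 neutrophil-like cells held 639, 634 and 1038. In control, 46 macrophage/monocyte-like cells held 20, 55 and 6, and 170 neutrophil-like cells held 90, 101 and 150. Levels per cell were not tested. Slfn4 averaged 105 ± 115 CPM in macrophage/monocyte-like cells and 919 ± 416 CPM in neutrophil-like cells (SD, n = 19). Its log2 fold change was -2.92 (SE 0.27, adjusted p = 4.81e-11, limma with library as a block). Slfn1 averaged 147 ± 141 CPM in macrophage/monocyte-like cells and 597 ± 291 CPM in neutrophil-like cells, a log2 fold change of -1.75 (SE 0.23, adjusted p = 8.00e-08, limma). Both were lower in 19 of 19 libraries. Slfn2 averaged 381 ± 195 CPM in macrophage/monocyte-like cells and 575 ± 229 CPM in neutrophil-like cells, and its log2 fold change of -0.32 (SE 0.17, adjusted p = 0.077, 95% confidence interval -0.66 to 0.02, limma) did not pass. Slfn2 was higher in macrophage/monocyte-like cells in 3 of 19 libraries.

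Of 540 genes tested, 75.4% were called, 38.3% lower and 37% higher in macrophage/monocyte-like cells, and this contrast too is among what the choice reads. Slfn5, with 12 transcripts in macrophage/monocyte-like and 28 in neutrophil-like cells, was below the filter. Leaving out 1 library moved the Slfn2 value between -0.54 and -0.30 and put it past the threshold in 8 of 19 cases, the lowest value coming without control replicate 3.

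Within macrophage/monocyte-like cells the pooled levels were higher in aGVHD for Slfn1, Slfn2 and Slfn4, and no fit by group was made in this class. Slfn2 had 493 CPM (exact 95% Poisson interval 420 to 574, 61 cells) in aGVHD and 226 CPM (170 to 294, 46 cells) in control. Slfn1 had 183 CPM (140 to 235) in aGVHD and 82.2 CPM (50.2 to 127) in control, and Slfn4 had 132 CPM (96.03 to 177) and 24.7 CPM (9.0 to 53.7). These intervals cover counting error in pooled cells and not the spread between libraries, and the difference was not tested. By library, Slfn4 was at 0 in 1 of 12 aGVHD and 6 of 10 control libraries in this class. Epithelial-like cells held 146 CPM of Slfn1 in aGVHD (97.3 to 212) and 58.4 CPM in control (29.1 to 104). They held 183 CPM of Slfn2 in aGVHD (127 to 254) and 53.1 CPM in control (25.4 to 97.6), and 83.6 CPM of Slfn4 in aGVHD and 37.1 CPM in control. These differences were not tested either. Barcodes not taken as used held, pooled by group, 137 CPM of Slfn1 in aGVHD (80.04 to 220) and 136 CPM in control (62.3 to 259). They held 121 CPM (67.9 to 200) and 136 CPM (62.3 to 259) of Slfn2, and 129 CPM (73.9 to 210) and 106 CPM (42.6 to 218) of Slfn4. The part of free RNA in the macrophage/monocyte-like values was not tested.

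**Figure D2:**
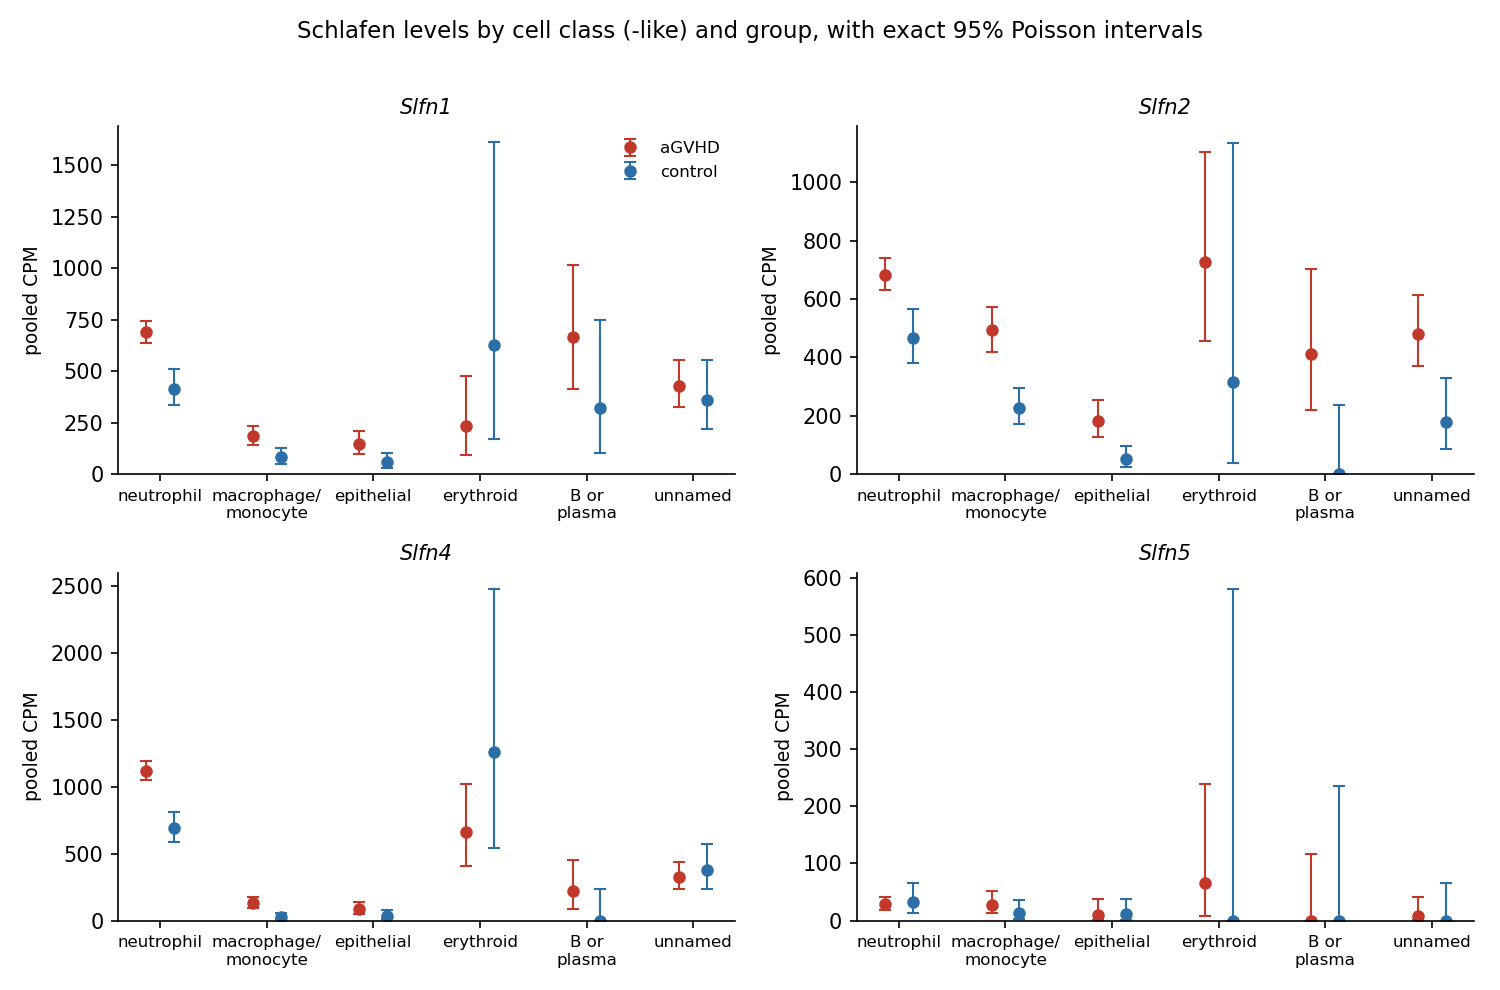
Pooled CPM of each Schlafen gene (y axis, scale differs by panel) in 6 cell classes (x axis), in aGVHD and control cells, with exact 95% Poisson intervals as bars. Slfn4 and Slfn1 are low in both the macrophage/monocyte-like and the epithelial-like class, Slfn2 is intermediate in macrophage/monocyte-like cells, and the erythroid-like and B or plasma-like classes have wide intervals.

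Over both groups, Slfn1 was at 637 CPM in neutrophil-like cells, 550 in B or plasma-like, 408 in unnamed, 301 in erythroid-like, 141 in the macrophage/monocyte-like class and 103 in the epithelial-like class. The intervals of neutrophil-like and B or plasma-like cells overlapped (592 to 685 and 360 to 806), as did those of macrophage/monocyte-like and epithelial-like cells. Slfn2 ran from 656 CPM in erythroid-like and 643 in neutrophil-like cells to 118 in epithelial-like cells. Slfn4 was at 1039 CPM in neutrophil-like cells and 766 in erythroid-like cells, and at 339 or less in each other class. The erythroid-like value rests on 28 transcripts in 62 cells. That class is led by the globin genes Hbb-y, Hba-a1, Hbb-bt and Hba-x, and had a median of 1485.5 transcripts per cell. Whether its cells are erythroid was not tested. Slfn5 lay between 0 and 54.7 CPM in each class, with overlapping intervals in neutrophil-like (28.9 CPM, 19.9 to 40.5) and macrophage/monocyte-like cells (20.8 CPM, 10.8 to 36.4).

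Neutrophil-like cells fell into 6 clusters, and the members differed in where they were high. Slfn4 was highest in cluster 11, at 1785 CPM (exact 95% Poisson interval 1439 to 2189), and cluster 7, at 1648 CPM (1492 to 1816). It was at 440 to 964 CPM in the other 4. Cluster 11 (21 aGVHD and 9 control cells) is led by the interferon-induced chemokine genes Cxcl11 and Cxcl10. Cluster 7 (92 aGVHD and 2 control cells) is led by the granule genes Ngp, Camp and Ltf. Slfn5 had 194 CPM (93.05 to 357; 10 transcripts) in cluster 11 and at most 30.03 CPM in the other neutrophil-like clusters.

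Slfn1 and Slfn2 followed other patterns. Slfn1 was highest in cluster 0, at 830 CPM (725 to 944), a cluster that has Txnip and Ifit3 among its leading genes, and was at 548 to 640 CPM in the other 5. Slfn2 was highest in cluster 2, at 831 CPM (709 to 967), which has Il23a and Icam1 among its leading genes, and lowest in cluster 8, at 354 CPM (245 to 495), which has Fos and Egr1. These levels pool groups that fill the clusters unequally. In control cells alone Slfn1 was at 520 CPM in cluster 0, against 585 in cluster 11, 541 in cluster 8 and 1276 in the 2 cells of cluster 7, and Slfn2 was at 269 CPM in cluster 0 and 301 in cluster 8, with overlapping intervals. Clusters were formed without Schlafen genes but from genes that may move with them, so these levels are a description. Slfn4 could be read by library in cluster 7 in 6 aGVHD libraries, those with 3 or more such cells, and had 868, 1539 and 3246 CPM (lowest, median, highest). It was higher than in the same library's cells outside clusters 7 and 11 in 4 of 6. In cluster 11 it was higher than in those cells in 2 of 4 aGVHD libraries, the lowest at 703 CPM, and in the 1 control library that could be read. A single cell held 22 of the 71 Slfn4 transcripts of cluster 11 in aGVHD.

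**Figure D3:**
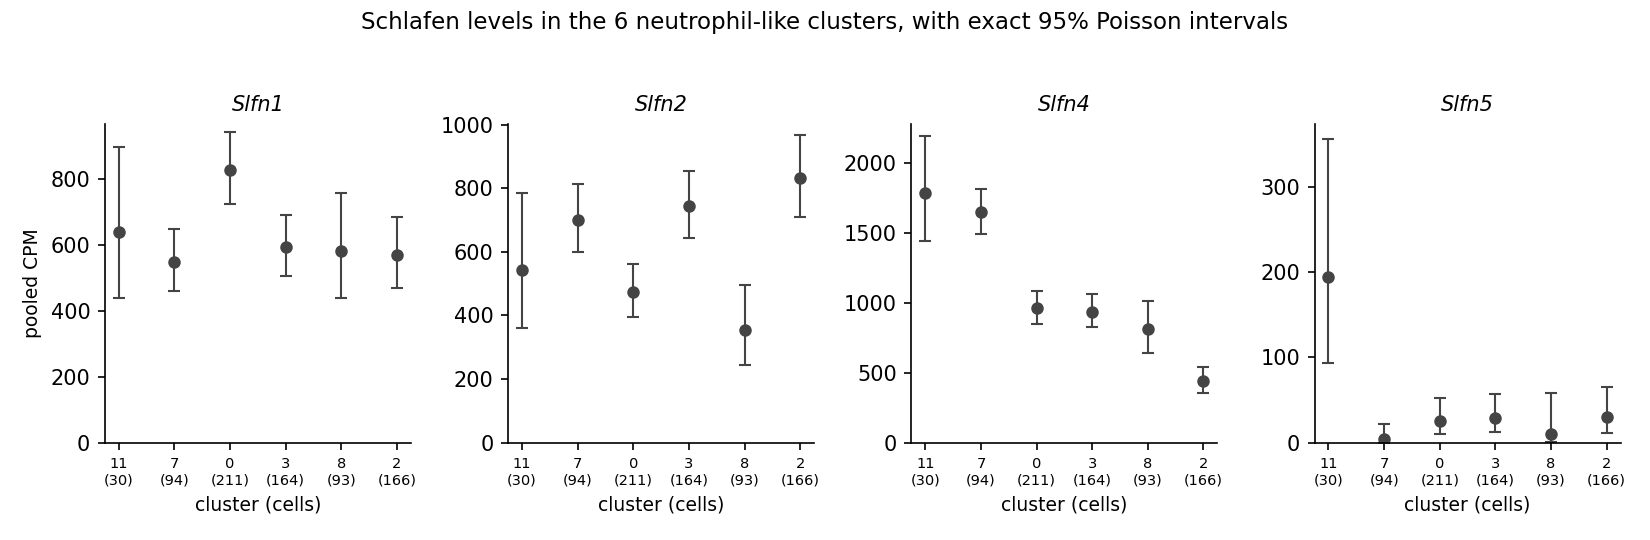
Pooled CPM of each Schlafen gene (y axis, scale differs by panel) in the 6 neutrophil-like clusters (x axis, number of cells in parentheses), over aGVHD and control cells together, with exact 95% Poisson intervals. Slfn4 is highest in clusters 11 and 7, Slfn5 in cluster 11, Slfn1 in cluster 0 and Slfn2 in cluster 2.

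Lcn2, which encodes the iron-scavenging granule protein lipocalin-2 and which the series is about, divides neutrophil-like cells of aGVHD libraries. Of the members, Slfn4 was higher in Lcn2-positive cells, in each of the 7 libraries that held 5 or more of each kind. Cells were thinned to 500 transcripts first, unnamed gene models included. A cell with 1 or more Lcn2 transcripts counted as positive (115 cells, against 300 negative). Slfn4 had 1240, 1255, 1543, 1851, 1896, 3535 and 4569 CPM in Lcn2-positive cells of aGVHD replicates 3, 7, 4, 1, 6, 8 and 11. It had 532, 369, 957, 1104, 1387, 1147 and 696 CPM in Lcn2-negative cells of the same replicates. The 2 kinds of cell overlapped across libraries, since the highest negative value lay above the 2 lowest positive ones.

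The means were 2270 ± 1279 CPM in Lcn2-positive and 885 ± 365 CPM in Lcn2-negative cells (SD, n = 7), and the log2 fold change was 1.23 (SE 0.32, adjusted p = 0.00371, limma with library as a block). Of the 105 genes tested, 14.3% were called higher and 7.62% lower. These values rest on 71 and 83 Slfn4 transcripts, and replicates 8 and 11, the highest, had 5 positive cells each. Cluster 7, with its granule genes, held 68 of the 115 positive cells and 21 of the 300 negative ones, and the part of that in the Slfn4 difference was not tested. Counting cells as positive from 2 Lcn2 transcripts ended the call (log2 fold change 0.26, adjusted p = 0.696, limma).

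The other members were below the filter in this comparison. Slfn1 averaged 572 ± 293 CPM in Lcn2-positive and 539 ± 222 CPM in Lcn2-negative cells and was higher in the positive cells of 3 of 7 libraries. Slfn2 averaged 706 ± 399 CPM in Lcn2-positive and 719 ± 275 CPM in Lcn2-negative cells and was higher in the positive cells of 4 of 7 libraries. Slfn5 had 0 transcripts in Lcn2-positive and 3 in Lcn2-negative cells, and Slfn8 had 1 and 16.

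**Figure D4:**
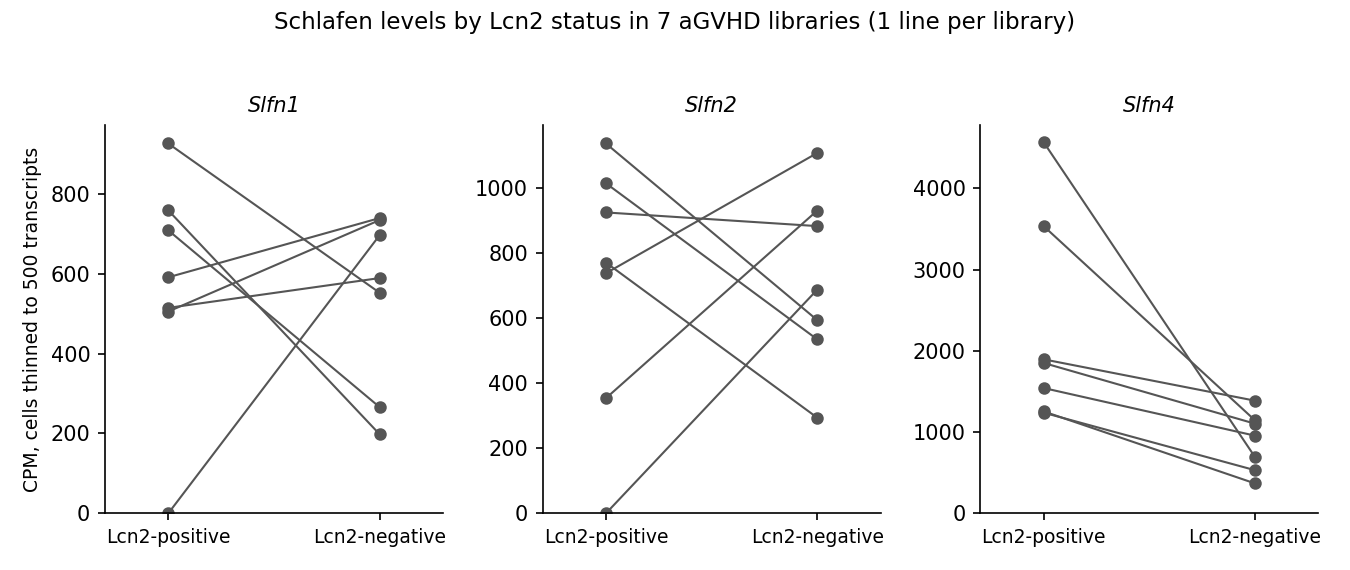
CPM of Slfn1, Slfn2 and Slfn4 (y axis, scale differs by panel) in Lcn2-positive and Lcn2-negative neutrophil-like cells of 7 aGVHD libraries, with 1 line per library. Each Slfn4 line is higher on the Lcn2-positive side, while those of Slfn1 and Slfn2 run both ways.

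**Figure D5:**
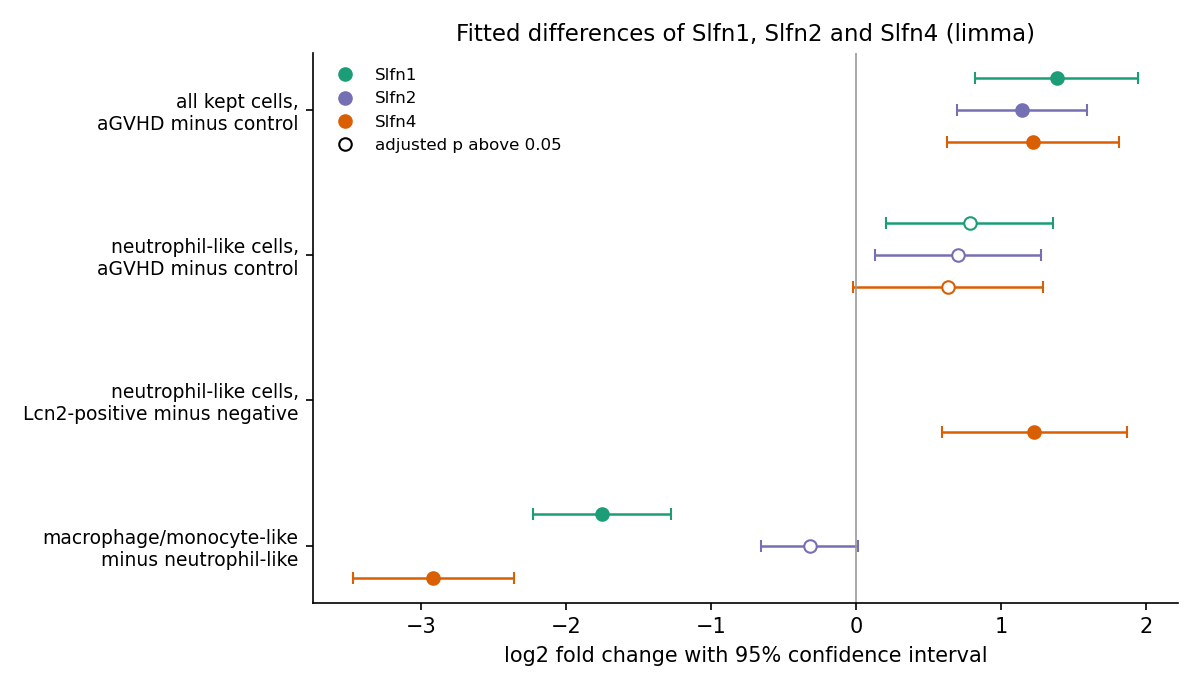
Log2 fold change (x axis) of Slfn1, Slfn2 and Slfn4 in 4 comparisons (rows), with 95% confidence intervals; open circles did not pass an adjusted p of 0.05. In the comparison by Lcn2 status Slfn4 alone passed the filter on low counts.

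Other interferon-induced genes were read in the same fits. Across all kept cells, 1 of 21 type I interferon-induced antiviral genes tested rose and none fell, with a median log2 fold change of 0.57 over the list against 0.01 over all genes tested. The share called higher over all genes was 4.14%, and the counts of these lists are read against it. The one that rose was Ifi204, a DNA sensor gene, at 200.4 ± 51.97 CPM in aGVHD and 114 ± 75.2 CPM in control (log2 fold change 1.11, adjusted p = 0.0222, limma). Of 12 interferon-gamma-induced GTPase and chemokine genes 1 rose, Gbp7, a guanylate-binding protein gene (0.98, adjusted p = 0.0190, limma), with a list median of 0.68. Of 3 Ifitm genes 1 rose, Ifitm1, which encodes a membrane protein that limits virus entry (1.19, adjusted p = 0.0139, limma), with a list median of 0.81. None of 9 interferon receptor and signalling genes passed, and none of 9 listed interferon ligand genes was high enough to test.

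Within neutrophil-like cells no gene of these lists passed. The median log2 fold changes were 0.24 over 15 type I genes, 0.04 over 11 interferon-gamma genes, 0.37 over 3 Ifitm genes and -0.04 over all genes tested. Slfn1, Slfn2 and Slfn4 had 0.78, 0.70 and 0.63 in the same fit. Genes of these lists were among those the cells were clustered on, so their differences between classes are a description. Between classes, 5 of 7 type I genes and 7 of 8 interferon-gamma genes were lower in macrophage/monocyte-like cells, beside 38.3% of all genes tested. Oasl2, of the oligoadenylate synthetase-like genes, had a log2 fold change of -2.01 and Isg15, the ubiquitin-like modifier gene, -1.38, against -2.92 for Slfn4 and -1.75 for Slfn1. Ly6e, a membrane protein gene, was higher there (0.47, adjusted p = 0.00244, limma).

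Cell by cell the members were weakly alike to any other gene. Over 758 neutrophil-like cells of 22 libraries, thinned to 500 transcripts and with library means removed, the genes nearest to Slfn4 were the alarmin genes S100a8 and S100a9 (Pearson r = 0.21 each) and Trim30a (0.18). Among the listed interferon genes they were Trim30a, Ifi204 (0.15) and Ifit3 (0.14). Slfn5 was nearest to Cxcl10 (0.23), with Slfn5 found in only 0.79% of the thinned cells. Slfn1 was nearest to Adgre5 (0.16), Srgn (0.14) and Fxyd5 (0.13), and Slfn2 to Ccr1 (0.14), Lyz1 (0.12) and Sema4a (0.12). At 1000 transcripts per cell the nearest were Srgn (0.22), Il1r2 (0.20) and B2m (0.18) for Slfn1 and Fth1 (0.21), Ctsb (0.19) and Cd14 (0.18) for Slfn2, with Srgn alone named at both depths. The median r over the 434 genes compared was 0.03 for Slfn1 and Slfn4 and 0.02 for Slfn2. Cells of a library share its depth and preparation, so r is given as a description.

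Among themselves the members had low correlations in these cells. At 500 transcripts per cell r was 0.02 between Slfn4 and Slfn1, -0.00235 between Slfn1 and Slfn2, and 0.04 between Slfn4 and Slfn5. Of the thinned neutrophil-like cells with an Slfn1 transcript 21.8% also had one of Slfn4, and of those without it 20.03% did. At 1000 transcripts per cell these shares were 38.4% and 29.8%, r was 0.08 between Slfn1 and Slfn2 and 0.11 between Slfn4 and Slfn5, and 0.07 between Slfn4 and Slfn1. In cells with an Ifit1 transcript, a gene of the antiviral translation block, 14 of 28 had Slfn4, against 140 of 730 without it. With 1000 transcripts per cell the nearest genes to Slfn4 were S100a9 (0.29), S100a6 (0.27) and Isg15 (0.26), and the shares with Slfn4 were 21 of 48 with Ifit1 and 203 of 639 without. For Slfn1 they were 24 of 48 and 200 of 639 at that depth, and 5 of 28 and 119 of 730 at 500 transcripts. For Slfn2 they were 9 of 48 and 179 of 639, and 4 of 28 and 122 of 730. These cells were pooled over groups and libraries.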

How the data were processed

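The authors deposited 1 table per library with the estimated transcript count of each gene in each of 192 barcodes, computed from whole molecular identifier counts out of 4096 possible identifiers, which was checked on the values. Per the labels' protocols libraries were made by CEL-Seq2, and the submitters' processing notes name BWA (0.6.2-r126) and bcl2fastq (2.17.1.14). The sources used here do not give the genome build or annotation. Values were rounded to whole transcripts. Barcodes with at least 500 transcripts were kept, no 2 kept columns were identical, and no doublet caller was run. The barcodes are numbered and not spelled out, so shared barcodes could not be counted. Unnamed gene models, 32.2 to 78.7% of a library's transcripts, stayed out of CPM totals and tests. They did count toward the minimum of 500 transcripts and toward the depth of thinning, so thinned cells can differ in named transcripts. Cells were clustered (Leiden 0.10.2, resolution 1.0, 12 principal components, 15 neighbours) on 200 listed genes without any Schlafen gene, and a cluster was named where at least 3 fixed markers were 1.5 times above the other cells. Leading genes had to be detected in 10% of a cluster's cells, a threshold set after seeing the data.

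Counts were summed per library, or per library and class, and fitted across all genes with limma 3.58.1 (R 4.3.3) on voom weights, with trimmed-mean scaling, genes of low counts removed, title set as covariate and Benjamini-Hochberg adjustment at 0.05. Fits were also run on simulated data with an assumed dispersion of 0.2. There 9.38% of the calls were false in the comparison by Lcn2 status and 6.1% in that between classes, both above the 5% aimed at. The false share was 4.55% in neutrophil-like cells and 3.12% across all kept cells. The genes named are the members, the other Schlafen genes, and of each list up to 4 past the threshold with the largest fold change, or else the 2 with the highest mean. Isg15, Oasl2, Ly6e and the Ifit1 overlap were chosen after their values were seen. Members and lists were chosen with earlier results of these data known. One gene that the naming rule would give is not reported here.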

Additional observations from a re-analysis of the deposited data

How the results depend on the processing

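Leaving out 1 library at a time kept Slfn1, Slfn2 and Slfn4 past the threshold in 22 of 22 fits across all kept cells, with log2 fold changes of 1.26 to 1.58, 1.06 to 1.23 and 1.09 to 1.36, while the number of genes called ran from 64 without control replicate 1 to 197 without aGVHD replicate 1, against 143. That number was 1808 with no filter on low counts, 76 with limma trend on log2(CPM + 1), 50 in the dated set, 9 in the other set and 95 without set as a term. It was 19 without cells of very high totals or much Kcnq1ot1 and 19 in libraries with at least 20 kept cells. Slfn1 lost its call with limma trend (2.44, adjusted p = 0.0527), and in the undated set Slfn1 (1.09), Slfn2 (0.93) and Slfn4 (1.36) all did. Slfn4 lost it without the cells of very high totals or much Kcnq1ot1 (0.77, adjusted p = 0.120, limma) and in libraries with at least 20 kept cells (1.22, adjusted p = 0.0858, limma). The cause of these losses was not tested.

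Whether title numbers pair the libraries could not be told from these values, and the main fit did not use them as pairs. The correlation of same-numbered dated libraries was over 0.1 in 3 of 6 pairs, and 3 of 6 libraries correlated best with their own number. With the replicate block 28 genes were called, against 8 in the same libraries without the pairing, and Slfn1 had 1.63 (adjusted p = 0.0647, limma) with it and 1.59 (adjusted p = 0.0573, limma) without. In neutrophil-like cells the block gave 0 genes.

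In neutrophil-like cells Slfn1, Slfn2 and Slfn4 passed under none of the 18 fits without 1 library and none of 19 other alternatives, with log2 fold changes over the 19 of 0.64 to 1.08, 0.10 to 1.34 and 0.45 to 1.04. Without 1 library they were 0.63 to 0.97, 0.47 to 0.89 and 0.40 to 0.79. The genes called were 0 to 2 without 1 library, 5 with no filter, 2 with cells called by summed markers, and 1 each with a minimum of 1000 transcripts, with unnamed rows included, and at Leiden resolutions of 0.5 and 1.5. Slfn4 had 0.45 without cluster 7 and 0.78 without cluster 11, both chosen after seeing the data. By Lcn2 status 74 genes were called without thinning, and Slfn4 had 1.004 to 1.38 without 1 library but 0.26 from 2 Lcn2 transcripts. Between classes Slfn2 had -0.54 to -0.30 without 1 library. At resolution 0.5 no macrophage/monocyte-like class formed, so that value could not be had. edgeR and DESeq2, planned as alternatives, were not run, because a format check did not read the layout of the deposited tables as counts. Shares of cells with a transcript moved with depth.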
